A study of Mus musculus with 8 samples.

Results

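The genes described here encode glucose transporters, the enzymes of glycolysis and its main regulators, the enzymes and transporters that handle pyruvate and lactate, and the enzymes that build and break down glycogen. They were chosen by name, with earlier results of these data known, so the counts below describe the list and do not test it. The list held 40 symbols, and all 40 were found among the 13637 genes of the deposited table through their Ensembl identifiers in GENCODE M21. Hearts of mouse embryos were sequenced (RNA-seq) at embryonic day 9.5. In 4 samples, named GOF below, the embryos were Bmp2GOF;Nkx2.5-Cre, that is, they carried Nkx2.5-Cre and a gain-of-function allele of Bmp2. The other group was 4 wild-type (WT) samples of the same stage and tissue. Nkx2.5-Cre acts in cardiac progenitors and their descendants, so a whole heart also holds cells outside that lineage. The labels do not say whether embryos were pooled, whether samples came from separate litters, or whether WT embryos carried Cre. The p-values therefore reflect the spread among these samples alone, and that spread may be technical.

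Glycolysis converts glucose to pyruvate in the cytosol. Pyruvate is either reduced to lactate, which leaves the cell through monocarboxylate transporters, or enters mitochondria, where pyruvate dehydrogenase feeds it into the citric acid cycle. Most steps are served by several isoenzymes, encoded by separate genes that differ in tissue and regulation. The embryonic heart relies heavily on glycolysis and stores glycogen, and it shifts towards fatty acid oxidation around birth. Many genes of glycolysis are textbook targets of the hypoxia-inducible factors.

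The totals of the table corresponded to between 13182009 and 17927674 reads per GOF sample, and to between 12287069 and 16697480 per WT sample. Bmp2, the targeted gene, had 95.8, 102, 108 and 91.15 normalized reads in GOF samples 1 to 4, against 61.7, 59.6, 54.4 and 49.5 in WT samples 1 to 4, so every GOF sample was above every WT sample. Here and below a level is in normalized reads, the unit of the deposited table, and values are listed in the order of the sample numbers. Columns summed to 998684 to 1020939 normalized reads in GOF and 984298 to 992276 in WT. A single read counted as 0.0568 (GOF sample 2) to 0.0807 (WT sample 3) normalized reads, so 1 normalized read stands for more than 1 read. Of the cardiomyocyte markers, 10 of 10 were in the table, at summed levels of 35220 to 41490 normalized reads in GOF and 33410 to 37850 in WT. By the limma test described below, 3 were higher and 2 lower, beside 28.2% of all genes in each direction. On the second principal component of all genes, which held 7.98% of the variance, GOF sample 1 scored 20.47 and was the farthest from 0, while the remaining GOF samples scored -12.21 to 3.357 and WT -5.447 to 1.685. Each of the 40 genes had at least 1 normalized read in all 8 samples, and the lowest value was 4.86, for Pfkfb4 in GOF sample 2.

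Of the 40 genes, 31 were higher in GOF, 3 were lower and 6 did not pass the threshold, set at 0.05 for the p of a limma test on log2(normalized reads + 1), adjusted over every gene of the table by Benjamini and Hochberg's method. Differences between the groups were widespread in these hearts: 56.3% of all genes passed the test, 28.2% higher and 28.2% lower. The 40 genes had a median log2 change of 0.70, against -0.002 over all genes. Rises of at least 2-fold (a log2 change of at least 1) were found for 14 of the 40 genes and for 3.58% of all genes, and rises of at least 4-fold for 3 of the 40 and for 0.587% of all genes. Values of the 2 groups did not overlap for 31 of the 40 genes (50.9% of all genes), with GOF above WT for 29 (25.6%) and below WT for 2 (25.3%). Without GOF sample 1 the counts were 31 higher and 2 lower, with a median of 0.73. The 40 genes together took 3.72% ± 0.104 of the normalized reads in GOF and 2.18% ± 0.0622 in WT (SD, n = 4 each).

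The calls ran along the whole pathway. From glucose uptake to hexokinase 5 of 5 genes rose, and from aldolase to pyruvate kinase 11 of 11. Of these 11, Eno3 lost its call under 10 of the 16 alternatives run. Between these, the hexose stage and its regulators had 5 of 8 higher and 1 lower. Of 7 genes of lactate and pyruvate handling, 5 rose and 1 fell, and of 9 glycogen genes 5 rose and 1 fell. Of the 40 genes, 10 share exon bases with another gene of the table, and whether reads were counted by strand is not given in the sources used here. In whole hearts, a change in the share of a cell type and a change in RNA per cell cannot be told apart.

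**Figure D1:**
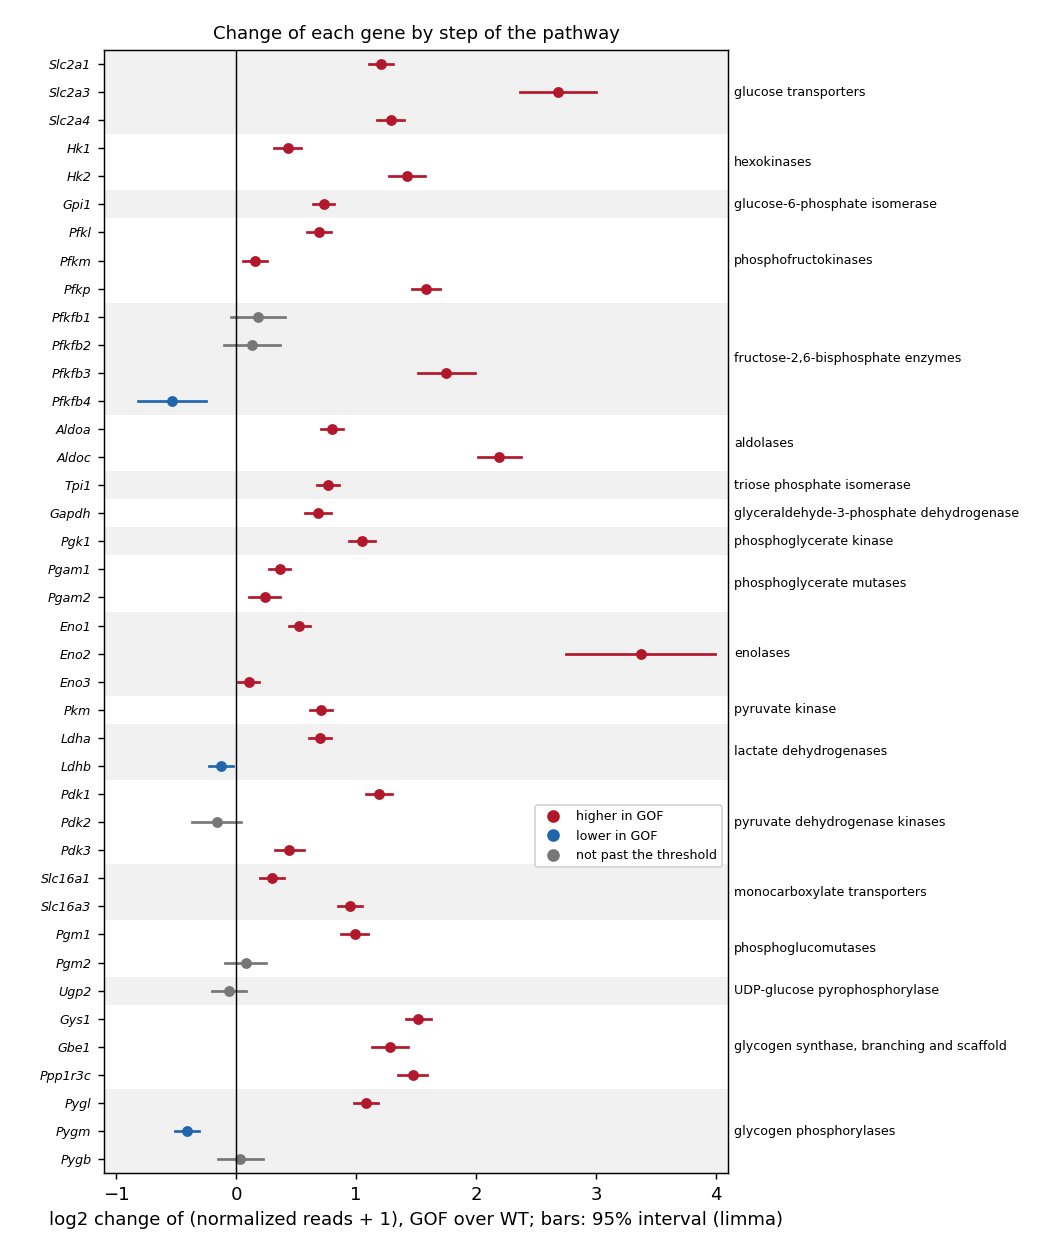
The horizontal axis is the log2 change of (normalized reads + 1), GOF over WT, for the 40 genes in pathway order from top to bottom. Points are limma estimates, bars are 95% intervals and colours give the call, with 31 genes higher, 3 lower (Pfkfb4, Ldhb and Pygm) and 6 not past the threshold.

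The promoters of these genes are shown because many of the genes moved together. RefSeq promoter windows (build GRCm38.p6), from 250 bases before to 50 after an annotated start, were found for 38 of the 40 genes. The letters searched on both strands were ACGTG, a form of the core of hypoxia response elements. Its reverse complement is CACGT. The other form, GCGTG, was not searched or marked, so the counts do not cover all such cores. Where the pair overlaps it spells CACGTG, the core of an E-box, which was counted as a single stretch. At least 1 stretch lay in 28 of the 58 windows of these genes (48.3%), against 6447 of all 32851 windows (19.6%). Counted by gene, with any window, the share was 24 of 38 (63.2%), against 5886 of 27025 (21.8%). The comparison set was not cut to the genes of the deposited table. The listed genes also had more windows per gene (58 for 38 genes, against 32851 for 27025), which favours a match in any window. The part of either in the difference was not tested. By call, the share was 18 of 29 (62.1%) among genes higher in GOF and 6 of 9 (66.7%) among the others. Median GC content was 60.33% in the windows of these genes and 52.67% in all windows, and its part in the difference was not tested. The windows of 5 genes are printed 5′ to 3′ with matching stretches in capitals: Ldha, Ppp1r3c and Pgk1 as rising genes with several stretches, Gys1 as a rising gene with none, and Pygm as a falling gene with 1. Ldha has 2 windows, and the one with more stretches is shown.
Ldha, chr7:46845554-46845853, plus strand: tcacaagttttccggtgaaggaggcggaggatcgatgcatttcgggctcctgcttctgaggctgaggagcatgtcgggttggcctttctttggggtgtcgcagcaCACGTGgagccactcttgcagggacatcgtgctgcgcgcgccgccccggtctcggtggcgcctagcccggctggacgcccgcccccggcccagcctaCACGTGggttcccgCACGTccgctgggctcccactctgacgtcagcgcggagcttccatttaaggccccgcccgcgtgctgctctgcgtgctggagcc
Ppp1r3c, chr19:36736555-36736854, minus strand: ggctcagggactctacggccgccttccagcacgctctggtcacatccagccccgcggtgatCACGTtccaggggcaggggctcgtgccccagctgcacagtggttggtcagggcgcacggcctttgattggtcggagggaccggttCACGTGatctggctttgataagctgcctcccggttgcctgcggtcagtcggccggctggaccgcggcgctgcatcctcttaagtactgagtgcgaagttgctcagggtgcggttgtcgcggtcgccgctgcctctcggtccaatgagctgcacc
Pgk1, chrX:106186850-106187149, plus strand: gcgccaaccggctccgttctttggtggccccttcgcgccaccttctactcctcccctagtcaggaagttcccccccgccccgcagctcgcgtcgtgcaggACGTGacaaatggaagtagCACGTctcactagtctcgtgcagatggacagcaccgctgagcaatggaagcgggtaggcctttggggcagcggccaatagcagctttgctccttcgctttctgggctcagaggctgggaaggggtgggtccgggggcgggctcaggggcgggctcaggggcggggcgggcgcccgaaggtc
Gys1, chr7:45434589-45434888, plus strand: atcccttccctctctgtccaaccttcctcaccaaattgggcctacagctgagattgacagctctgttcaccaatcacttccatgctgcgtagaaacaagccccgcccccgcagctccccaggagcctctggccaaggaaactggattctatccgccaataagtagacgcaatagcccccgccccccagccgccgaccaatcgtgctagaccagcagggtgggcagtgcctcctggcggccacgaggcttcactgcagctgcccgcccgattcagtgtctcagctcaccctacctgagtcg
Pygm, chr19:6384158-6384457, plus strand: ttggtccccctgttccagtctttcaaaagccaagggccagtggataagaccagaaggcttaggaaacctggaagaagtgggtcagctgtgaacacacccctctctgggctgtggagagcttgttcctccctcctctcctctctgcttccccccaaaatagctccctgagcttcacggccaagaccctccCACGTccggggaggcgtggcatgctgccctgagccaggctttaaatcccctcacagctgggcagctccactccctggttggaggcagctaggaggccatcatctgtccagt
In the Ldha window the stretches begin at positions -145, -48 and -34 from the start. In Ppp1r3c they begin at -189 and -104, in Pgk1 at -150 and -131 and in Pygm at -61. A match is a run of letters and was not tested as a binding site.

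Transcripts of each of the 3 glucose transporter genes were higher in GOF. Slc2a3, which encodes the high-affinity transporter GLUT3, had the largest rise among them, with 1371, 1214, 1488 and 1276 normalized reads in GOF, against 270.1, 188.5, 186 and 191 in WT. All GOF values were more than 4-fold above the highest WT value. WT sample 1 was above the other WT samples, which lay close together. The log2 change was 2.69 ± 0.13 (SE, limma adjusted p = 1.84e-06), and 0.286% of all genes had a larger change. Slc2a1 (chromosome 4, 119108711 to 119137983, plus strand, GRCm38), which encodes the widespread basal transporter GLUT1, had 2815, 2989, 3130 and 2858 in GOF and 1330, 1220, 1307 and 1236 in WT. Its groups were far apart, with a log2 change of 1.21 ± 0.05 (SE). Slc2a4, the gene of the insulin-responsive transporter of heart, fat and muscle, averaged 52.97 ± 1.65 in GOF and 21.1 ± 0.596 in WT (SD, n = 4 each), a log2 change of 1.29. Per kilobase of merged exon, a level used to compare genes that takes no account of which transcripts were expressed, Slc2a1 was the main transporter in both groups. Its level was 841 ± 40.6 normalized reads per kilobase in GOF and 363 ± 15.3 in WT (SD, n = 4 each). The log2 ratio of Slc2a3 to Slc2a1 was higher in GOF by 1.48 ± 0.13 (SE, adjusted exact permutation p = 0.0339). Slc2a3 made up 17.7% ± 1.17 of the summed per-kilobase level of the 3 transporters in GOF and 7.22% ± 1.09 in WT.

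Hexokinases trap glucose in the cell as glucose 6-phosphate. Hk2, the isoenzyme typical of muscle and of rapidly growing cells, had 619, 651, 698.5 and 560 normalized reads in GOF, against 232, 209.8, 250.4 and 245 in WT. The GOF values varied among themselves, but the lowest was more than 2-fold above the highest WT value. Its log2 change was 1.43 ± 0.07 (SE, limma adjusted p = 3.2e-09). Hk1, the widespread isoenzyme, had 710, 819.5, 815 and 775 in GOF and 577, 537, 611 and 587 in WT, again without overlap, with a smaller log2 change of 0.43 ± 0.05 (SE). Per kilobase, Hk2 held 53.6% ± 2.13 of the summed hexokinase level in GOF and 36.7% ± 0.649 in WT. This order rests on the scaling by merged exon length (5969 bases for Hk2 and 8532 for Hk1): in normalized reads Hk1 was above Hk2 in both groups. The difference between the groups in the log2 ratio of Hk2 to Hk1 was 0.996 ± 0.06 (SE). By exact permutation of the 8 samples (two-sided, 70 assignments) it passed (p = 0.0286, the smallest these can give, adjusted p = 0.0339 over 19 isoenzyme pairs). Gpi1, the only isomerase gene of the next step, had 1702, 1764, 1797 and 1780 in GOF, against 1068, 1025, 1089 and 1060 in WT. Its log2 change was 0.73 ± 0.04 (SE), and the values of each group lay within a narrow range.

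Phosphofructokinase is the main controlled step of glycolysis, and its 3 isoenzyme genes rose to very different degrees. Pfkp, the platelet-type isoenzyme, had 706, 789, 809 and 741 normalized reads in GOF, against 262, 235, 269.5 and 247 in WT. The groups were about 3-fold apart, with a log2 change of 1.58 ± 0.05 (SE, limma adjusted p = 3e-12). Pfkl, the liver-type isoenzyme, averaged 724 ± 31.6 in GOF and 448 ± 20.1 in WT (SD, n = 4 each), a log2 change of 0.69. For Pfkm, the muscle-type isoenzyme, the values were 119.6, 127, 122 and 129 in GOF and 108, 114, 118 and 106 in WT. These groups were adjacent without overlap, and the log2 change was 0.16 ± 0.05 (SE, limma adjusted p = 0.00799). That call was lost when mitochondrially encoded genes were left out and columns set to equal totals (log2 change 0.09, limma adjusted p = 0.0821). Per kilobase, Pfkm held 18.4% ± 0.754 of the phosphofructokinase level in GOF and 27.96% ± 1.398 in WT, and Pfkp held 28.03% ± 0.629 and 15.8% ± 0.481. That Pfkm was above Pfkp in WT rests on merged exon length (3340 bases for Pfkm and 13401 for Pfkp). In normalized reads Pfkp was above Pfkm in both groups, with WT means of 253.5 ± 15.26 and 111.4 ± 5.421 (SD, n = 4 each). The log2 ratio of Pfkp to Pfkm was higher in GOF by 1.42 ± 0.07 and that of Pfkl to Pfkm by 0.53 ± 0.06 (SE, adjusted exact permutation p = 0.0339 for both). Pfkp shares 748 exon bases with Pitrm1 on the other strand, which was lower in GOF, with a log2 change of -0.20.

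The bifunctional enzymes of the Pfkfb family make and remove fructose 2,6-bisphosphate, a strong activator of phosphofructokinase. Pfkfb3, whose product acts mainly as the kinase, had 147, 154, 192 and 129 normalized reads in GOF, against 42.6, 45.4, 47.4 and 44.7 in WT. GOF sample 3 was the highest and GOF sample 4 the lowest, yet every GOF value was well above the WT range. Its log2 change was 1.75 ± 0.105 (SE, limma adjusted p = 7.89e-07). Pfkfb4 went the other way, with 6.69, 4.86, 5.12 and 7.53 in GOF and 7.36, 9.69, 10.5 and 8.997 in WT. Its level was low, with 358 implied reads over the 4 GOF samples and 530 over the 4 WT samples. GOF sample 4 lay just above WT sample 1, and the log2 change of Pfkfb4 was -0.53 ± 0.13 (SE, limma adjusted p = 0.00334). Pfkfb1, known from liver and muscle, and Pfkfb2, known as the heart isoenzyme, did not pass. Their log2 changes were 0.18 (95% interval -0.04 to 0.41) and 0.13 (-0.099 to 0.37), at 6.54 to 13.5 normalized reads in all samples. Pfkfb3 held 80.3% ± 3.84 of the per-kilobase level of the family in GOF and 53.7% ± 1.401 in WT. Against Pfkfb2, the log2 ratio of Pfkfb3 was higher in GOF by 1.62 ± 0.21, and that of Pfkfb4 differed by -0.67 ± 0.102 (SE, adjusted exact permutation p = 0.0339 for both).

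**Figure D2:**
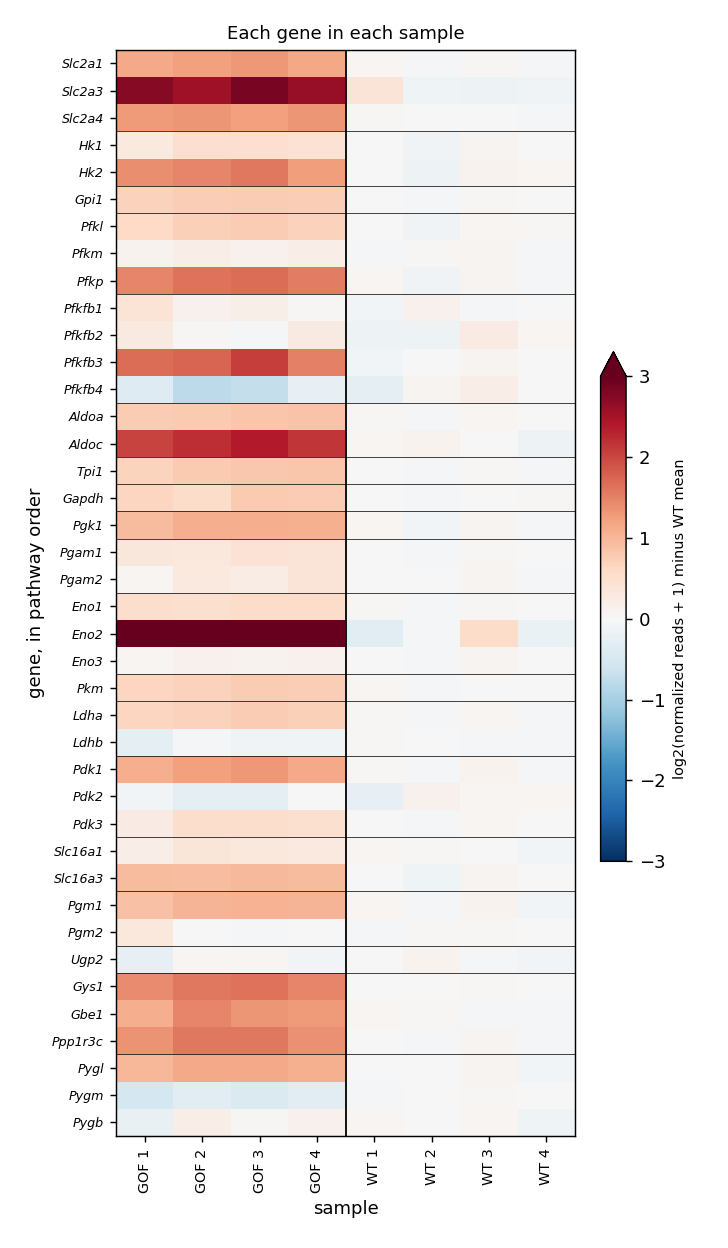
Colour gives log2(normalized reads + 1) minus the WT mean for each of the 40 genes (vertical axis, pathway order) in each sample (horizontal axis, 4 GOF samples left of 4 WT samples), and the scale ends at 3. Eno2, Slc2a3 and Aldoc are the darkest in all 4 GOF samples, while Pfkfb4 and Pygm are the clearest falls.

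Aldolase splits the hexose into a pair of triose phosphates. Aldoa, the main isoenzyme of muscle and of most embryonic tissue, had 3609, 3667, 3810 and 3843 normalized reads in GOF, against 2179, 2043, 2222 and 2116 in WT. Aldoc, best known from brain, had 41.65, 48.15, 53.95 and 45.4 in GOF and 10.03, 10.3, 9.403 and 8.41 in WT. Both genes were apart without overlap, and the rarer one changed more. The log2 changes were 0.802 ± 0.04 for Aldoa and 2.19 ± 0.08 for Aldoc (SE, limma adjusted p = 6.19e-10 and 1.14e-11). Aldoa still held 98.9% ± 0.106 of the per-kilobase aldolase level in GOF and 99.6% ± 0.0414 in WT. Relative to Aldoa, the log2 ratio of Aldoc was higher in GOF by 1.39 ± 0.096 (SE, adjusted exact permutation p = 0.0339).

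The next 3 steps are each represented by a single gene, and all 3 rose. Tpi1, which interconverts the triose phosphates, had 1814, 1956, 1997 and 2026 normalized reads in GOF, against 1153, 1124, 1172 and 1123 in WT. Gapdh, the dehydrogenase that yields NADH and is often used as a loading control, had 1297, 1210, 1428 and 1397 in GOF and 834, 797, 834.5 and 848 in WT. Neither gene had overlapping groups, and the log2 changes were 0.77 ± 0.04 and 0.68 ± 0.05 (SE). Pgk1 (chromosome X, 106187100 to 106203699, plus strand, GRCm38), the kinase of the earlier ATP-forming step, had 3089, 3404, 3415 and 3368 in GOF, against 1667, 1513, 1696 and 1546 in WT. It was about 2-fold higher, with a log2 change of 1.05 ± 0.05 (SE, limma adjusted p = 1.51e-10), and GOF sample 1 was below the other GOF samples.

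Phosphoglycerate mutase genes had small rises. Pgam1, the widespread isoenzyme, had 1526, 1497, 1618 and 1573 normalized reads in GOF, against 1225, 1170, 1235 and 1196 in WT, without overlap. Pgam2, the muscle isoenzyme, had 215, 251.5, 241 and 269 in GOF and 204, 206, 219 and 197 in WT, and GOF sample 1 lay within the WT range. The log2 changes were 0.36 ± 0.04 and 0.24 ± 0.06 (SE, limma adjusted p = 2.64e-06 and 0.00323). The log2 ratio of Pgam2 to Pgam1 differed by -0.13 ± 0.07 (SE), which did not pass (exact permutation p = 0.171, adjusted p = 0.181).

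Enolases showed the widest spread within a step. Eno2, the isoenzyme known as neuronal enolase, had 123, 93.3, 69.1 and 74.7 normalized reads in GOF, against 5.885, 7.37, 11.6 and 6.43 in WT. GOF sample 1 was the highest, WT sample 3 was the highest of its group, and the groups were still more than 5-fold apart at their nearest values. This was the largest change of the 40 genes, at 3.37 ± 0.26 on the log2 scale (SE, limma adjusted p = 4.16e-05), and 0.11% of all genes had a larger one. Of the neural tube and neuron markers, 4 of 6 were in the table. Their summed level was 18.1 to 20.9 normalized reads in GOF and 17.4 to 23.2 in WT. By limma 0 were higher (0 also at an unadjusted p under 0.05) and 1 was lower, beside 28.2% of all genes in each direction. Eno3, the muscle isoenzyme, had 277, 290.1, 285 and 291 in GOF and 263, 253, 282 and 265 in WT, and GOF sample 1 lay below WT sample 3. Its log2 change was 0.11 ± 0.04 (SE, limma adjusted p = 0.0456). The Eno3 call was lost when any of GOF samples 2, 3 and 4 and WT samples 1, 2 and 4 was left out (adjusted p 0.0736 to 0.149 by limma). It was also lost with quantile normalization (0.354) and without mitochondrially encoded genes at equal totals (0.415). Without the intensity trend and robust prior of limma the Eno3 call was lost as well (adjusted p = 0.087). Eno1, the widespread isoenzyme, averaged 2923 ± 64.3 in GOF and 2026 ± 70.95 in WT (SD, n = 4 each), a log2 change of 0.53. Its near-identical copy Eno1b had a log2 change of 0.52, and reads shared between them cannot be assigned with certainty. Per kilobase, Eno1 held 74.75% ± 0.758 of the enolase level of the 3 genes in GOF and 70.9% ± 0.7425 in WT, Eno3 22.6% ± 0.619 and 28.8% ± 0.6602, and Eno2 2.63% ± 0.718 and 0.312% ± 0.0961. Against Eno1, the log2 ratio of Eno2 was higher in GOF by 2.84 ± 0.27 and that of Eno3 differed by -0.42 ± 0.03 (SE, adjusted exact permutation p = 0.0339 for both).

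Pyruvate kinase ends glycolysis. Pkm, the gene of its muscle-type and embryonic forms, had 4089, 4243, 4453 and 4357 normalized reads in GOF, against 2741, 2553, 2598 and 2598 in WT. The lowest GOF value was far above the highest WT value, and the log2 change was 0.71 ± 0.04 (SE, limma adjusted p = 3.03e-09). The table is per gene, so the splice forms of Pkm were not separated.

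**Figure D3:**
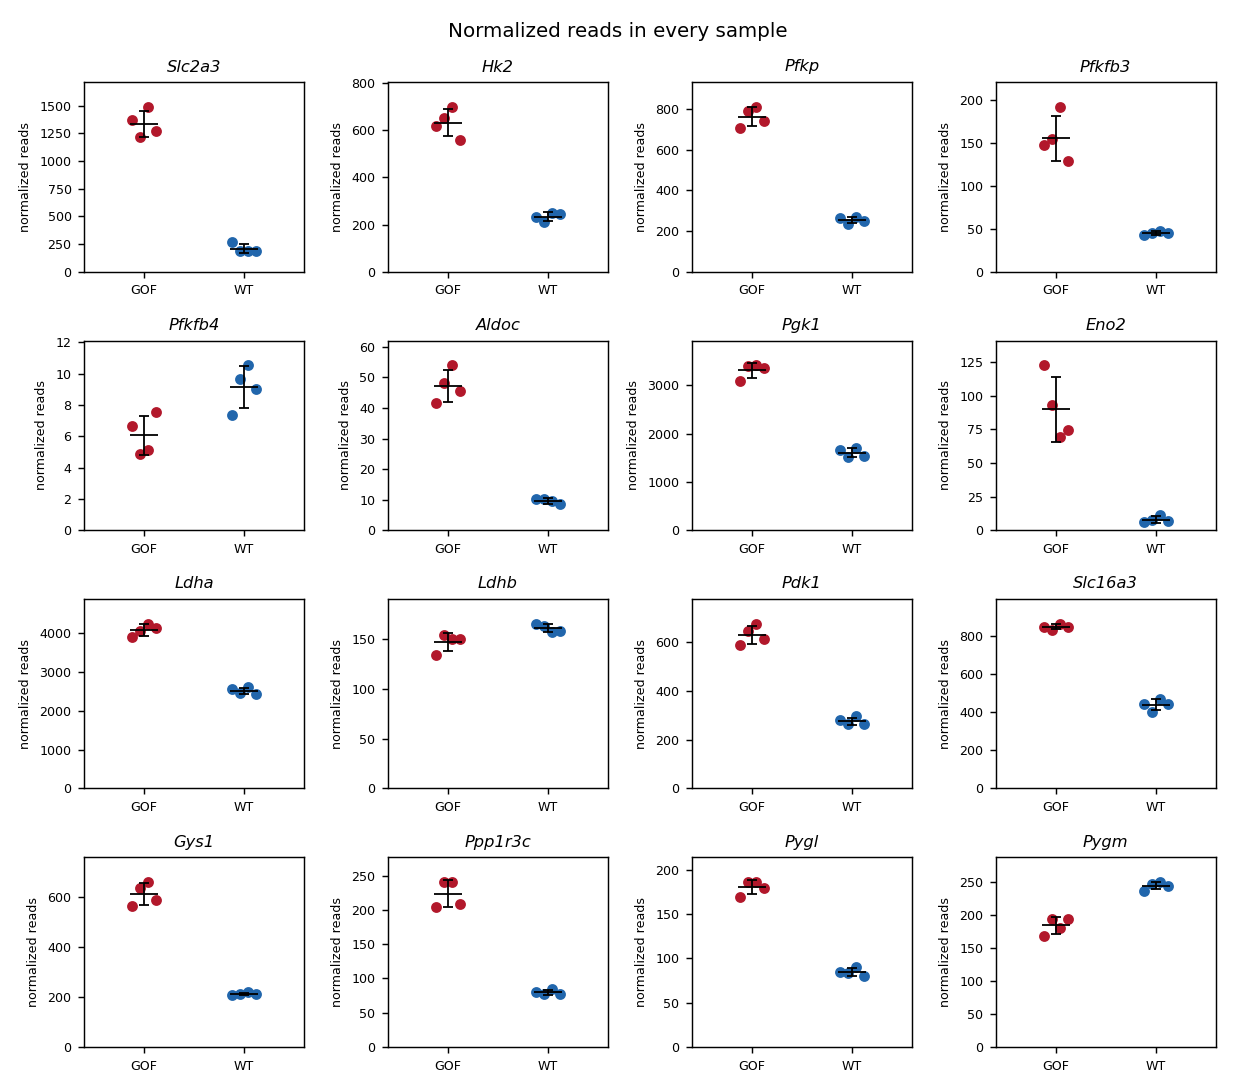
Normalized reads (vertical axis, from 0) in the 4 GOF and 4 WT samples are plotted for 16 of the genes, with points for samples and bars for the mean and SD. GOF lies wholly above WT in 13 panels, wholly below it for Ldhb and Pygm, and overlaps it for Pfkfb4.

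Lactate dehydrogenase genes moved apart. Ldha, whose subunit favours the conversion of pyruvate to lactate, had 3900, 4048, 4245 and 4135 normalized reads in GOF, against 2566, 2458, 2608 and 2427 in WT. Ldhb, whose subunit is typical of the adult heart, had 134, 154, 149.9 and 149 in GOF and 165, 163, 156 and 157 in WT. Ldha was clearly higher in every GOF sample, while Ldhb was slightly lower, with adjacent groups that did not overlap. The log2 changes were 0.699 ± 0.04 and -0.13 ± 0.05 (SE, limma adjusted p = 3.83e-09 and 0.0302). The call for Ldhb was lost without GOF sample 1 (-0.08, limma adjusted p = 0.0851), WT sample 1 (-0.11, 0.0876) or WT sample 2 (-0.12, 0.0744). It was lost as well without the intensity trend and robust prior of limma (adjusted p = 0.0736). The log2 ratio of Ldha to Ldhb was higher in GOF by 0.83 ± 0.04 (SE, adjusted exact permutation p = 0.0339). Per kilobase, Ldhb held 7.04% ± 0.283 of the summed level in GOF and 11.85% ± 0.4505 in WT.

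Pyruvate dehydrogenase kinases restrain the entry of pyruvate into the citric acid cycle. Pdk1 had 588, 644, 673.5 and 609.6 normalized reads in GOF, against 279, 262, 295 and 264 in WT. All GOF values were at least about 2-fold above the WT values, with a log2 change of 1.19 ± 0.05 (SE, limma adjusted p = 4.43e-11). Pdk3 averaged 139 ± 12.7 in GOF and 102 ± 2.59 in WT (SD, n = 4 each), a log2 change of 0.45. For Pdk2 the values were 16.1, 13.8, 13.75 and 17.4 in GOF and 14.3, 18.7, 17.96 and 17.7 in WT. These groups overlapped, and the log2 change of -0.16 (95% interval -0.36 to 0.04) did not pass (limma adjusted p = 0.1665). Without WT sample 1 it did, at -0.24 (limma adjusted p = 0.0412). Per kilobase, Pdk1 held 57.7% ± 1.26 of the level of the 3 kinases in GOF and 43.9% ± 1.05 in WT. On this scale Pdk3 led in WT, but that rests on merged exon length (7779 bases for Pdk1 and 2561 for Pdk3): in normalized reads Pdk1 led in both groups, with a WT mean of 275 ± 15.35 against 102 ± 2.59 for Pdk3 (SD, n = 4 each). The log2 ratio of Pdk1 to Pdk2 was higher in GOF by 1.35 ± 0.15 and that of Pdk3 to Pdk2 by 0.61 ± 0.15 (SE, adjusted exact permutation p = 0.0339 for both). The ratio of Pdk3 to Pdk2 lost its call when any of GOF samples 2 and 3 and WT samples 2, 3 and 4 was left out (differences of 0.53 to 0.60, adjusted exact permutation p 0.0639 to 0.0679).

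Lactate leaves cells by monocarboxylate transport. Slc16a3, which encodes MCT4, the exporter of highly glycolytic cells, had 847, 831, 862 and 843 normalized reads in GOF, against 444, 401, 467 and 444 in WT. Slc16a1, which encodes the widespread transporter MCT1, had 233, 263, 254 and 247 in GOF and 209, 207, 202.5 and 191 in WT. Both rose without overlap, Slc16a3 by 0.95 ± 0.05 and Slc16a1 by 0.297 ± 0.05 on the log2 scale (SE, limma adjusted p = 2.29e-10 and 6.03e-05). Their log2 ratio, Slc16a3 to Slc16a1, was higher in GOF by 0.65 ± 0.07 (SE, adjusted exact permutation p = 0.0339).

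Glycogen synthesis starts from glucose 6-phosphate through phosphoglucomutase and UDP-glucose pyrophosphorylase. Pgm1, the main phosphoglucomutase, had 693, 757, 779 and 757 normalized reads in GOF, against 389, 358, 403 and 352 in WT, a log2 change of 0.99 ± 0.05 (SE, limma adjusted p = 4.21e-10). Pgm2, known in humans as a phosphopentomutase, had 22.9, 18.3, 17.75 and 18.4 in GOF and 17.3, 18.7, 18.5 and 18.03 in WT. Only Pgm1 passed, and the log2 change of Pgm2 was 0.08 (95% interval -0.09 to 0.25, limma adjusted p = 0.422), or -0.0001 without GOF sample 1. In GOF the log2 ratio of Pgm1 to Pgm2 was higher by 0.91 ± 0.13 (SE, adjusted exact permutation p = 0.0339). Ugp2, which makes the UDP-glucose that glycogen synthase uses, had 155, 191, 191 and 173 in GOF and 185, 199, 180.2 and 172 in WT. These groups overlapped, with a log2 change of -0.06 (95% interval -0.198 to 0.09), which was 0.0067 without GOF sample 1.

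The genes of glycogen synthase, the branching enzyme and the scaffold Ppp1r3c all rose. Gyg, the gene of glycogenin, which primes the glycogen particle, is not among the 40 and did not pass, with 1021 ± 48.7 normalized reads in GOF and 1080 ± 32.3 in WT (SD, n = 4 each) and a log2 change of -0.08 (limma adjusted p = 0.139). Gys1, the muscle-type glycogen synthase (chromosome 7, 45434844 to 45456619, plus strand, GRCm38), had 567.5, 637, 661 and 588 normalized reads in GOF, against 209.9, 210.5, 219 and 212.5 in WT. The WT values lay within a narrow range and the groups were almost 3-fold apart, with a log2 change of 1.52 ± 0.05 (SE, limma adjusted p = 1.95e-12). Gbe1, the branching enzyme, had 63.6, 83.1, 75.5 and 72.6 in GOF and 30.85, 30.4, 28.1 and 28.8 in WT, a log2 change of 1.28 ± 0.07 (SE). Ppp1r3c, a scaffold that brings protein phosphatase 1 to glycogen and so activates the synthase, averaged 223.5 ± 19.5 in GOF and 79.7 ± 3.33 in WT (SD, n = 4 each), a log2 change of 1.47. Gys1 shares 310 exon bases with Ruvbl2 on the other strand, which was higher in GOF by 0.26.

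The glycogen phosphorylases, which release glucose 1-phosphate from glycogen, went in different directions. Pygl, the liver-type isoenzyme, had 169, 186, 186 and 179 normalized reads in GOF, against 84.6, 83.1, 89.95 and 80.1 in WT. Pygm, the muscle-type isoenzyme, had 168, 194, 179 and 193.5 in GOF and 236, 246, 249 and 243 in WT. Pygl was about 2-fold higher, and all GOF values of Pygm lay under the lowest WT value. The log2 changes were 1.08 ± 0.05 and -0.41 ± 0.05 (SE, limma adjusted p = 4.43e-11 and 3.72e-06). Pygb, the brain-type isoenzyme, averaged 288 ± 36.1 in GOF and 279 ± 16.5 in WT (SD, n = 4 each), and its log2 change of 0.04 (95% interval -0.15 to 0.23) did not pass. Its sign turned under 4 alternatives, at -0.03 to -0.005. Summed per kilobase, the 3 phosphorylases reached 143 ± 12.2 in GOF, against 146 ± 4.35 in WT (SD, n = 4 each), with overlapping groups. Pygl held 18.3% ± 1.05 of that sum in GOF and 8.39% ± 0.195 in WT, and Pygm 39.9% ± 1.04 and 51.85% ± 1.499. Against Pygb, the log2 ratio of Pygl was higher in GOF by 1.05 ± 0.07 and that of Pygm differed by -0.44 ± 0.07 (SE, adjusted exact permutation p = 0.0339 for both).

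**Figure D4:**
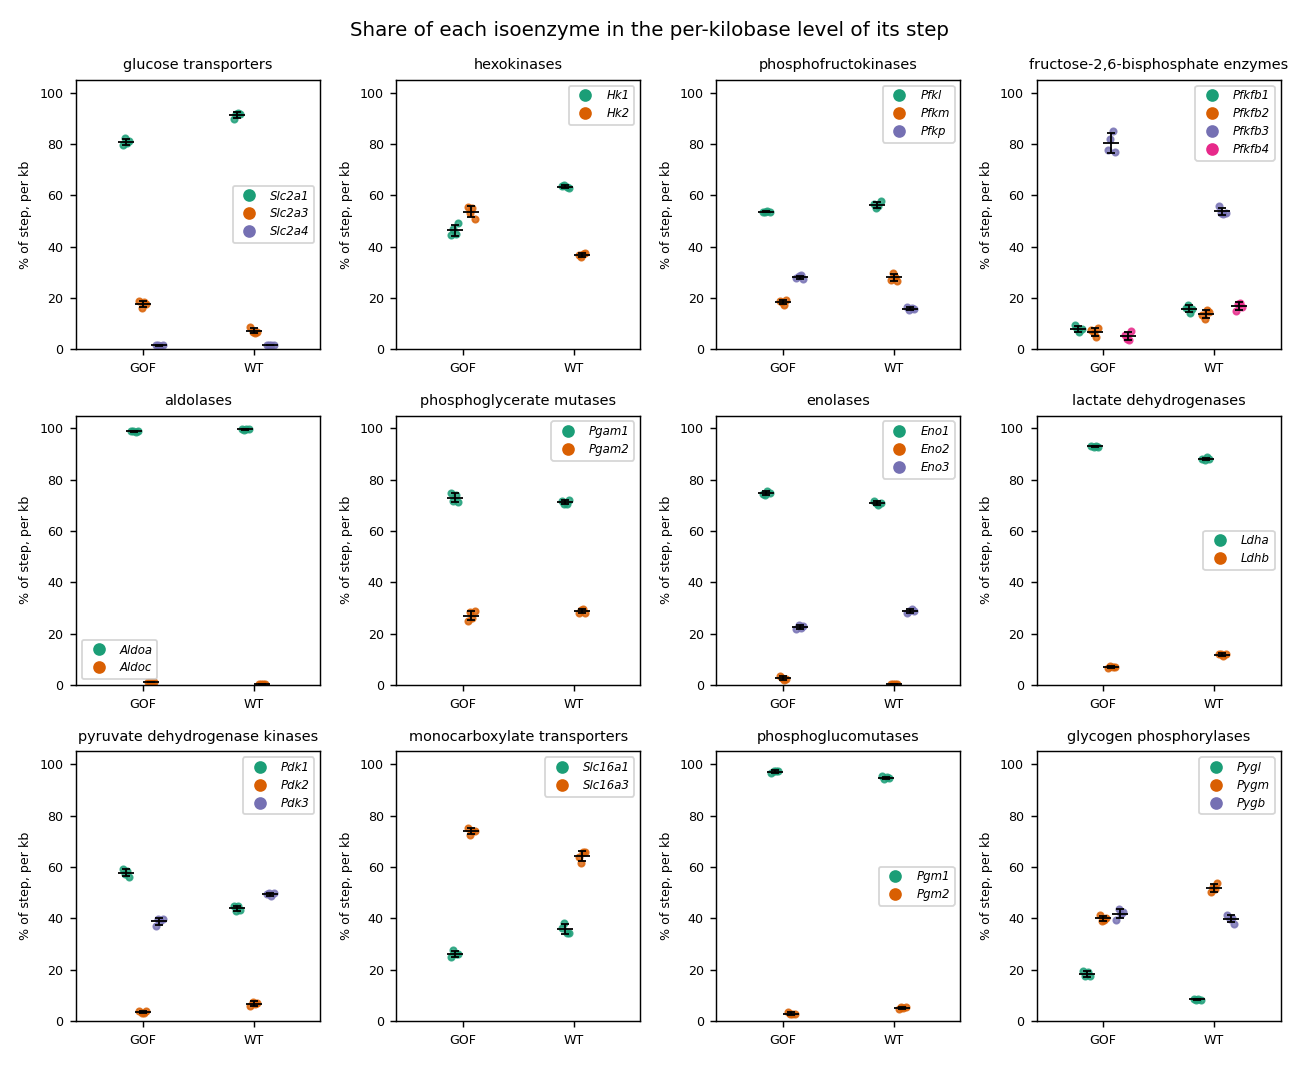
Each panel is a step with several isoenzymes, and the vertical axis gives the percent of the summed per-kilobase level of the step that each gene held in the GOF and WT samples (points are samples, black bars the mean and SD of 4). On this scale the leading gene differs between the groups in 3 panels, with Hk2, Pdk1 and Pygb leading in GOF and Hk1, Pdk3 and Pygm in WT, whereas in normalized reads Hk1, Pdk1 and Pygb lead in both groups.

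Of the 19 isoenzyme pairs tested, 16 had a log2 ratio that differed between the groups at an adjusted exact permutation p of 0.0339. All 16 had the smallest p that these permutations can give (0.0286), so the adjusted p does not rank them. Several pairs share a gene, and the share of other gene pairs that would pass was not computed. Among all single genes, 50.9% had groups that did not overlap. The pairs that did not pass were Slc2a4 to Slc2a1 (0.08 ± 0.05, SE), Pfkfb1 to Pfkfb2 (0.05 ± 0.16) and Pgam2 to Pgam1. Without GOF sample 3 the ratio of Slc2a4 to Slc2a1 passed, with a difference of 0.13. In the 12 steps with several isoenzymes, the gene with the largest log2 change was the most abundant per kilobase in WT in 5 steps, the least abundant in 5 and between these in 2. The places of Pfkp and Pdk1 in this order depend on the scaling by exon length. In normalized reads Pfkm was the least abundant phosphofructokinase in WT, and Pdk1 was the most abundant of its kinases. Summed per kilobase over its genes, the lowest GOF level lay above the highest WT level at 17 of the 19 steps. The same held for 25.6% of all single genes, and no share was computed for sums of other genes. The sums at the transporters were 1041 ± 50.04 normalized reads per kilobase in GOF and 398 ± 19.7 in WT, and those of the synthase, branching enzyme and scaffold 224 ± 17.3 and 79.2 ± 1.85 (SD, n = 4 each). These steps had the highest ratios of GOF to WT, and the lowest of the 17 was at the phosphoglycerate mutases, with 1075 ± 41.3 in GOF and 854 ± 22.8 in WT (SD, n = 4 each). Both exceptions were glycogen steps, UDP-glucose pyrophosphorylase and the phosphorylases.

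Relatives of these genes were taken from lists written from textbook knowledge, also with earlier results of these data known. Their counts stand beside 28.2% of all genes higher and 28.2% lower. Gyg, Hkdc1, Slc2a12, Phkb and Pdha1 are named outside the rule for named genes and were chosen after their values were seen. Of 27 further genes of glucose entry and glycogen in the table, 11 rose, 6 fell and 10 did not pass (median log2 change 0.06). Epm2a, the glycogen phosphatase laforin, averaged 41.5 ± 2.05 normalized reads in GOF and 8.25 ± 1.01 in WT (SD, n = 4 each), a log2 change of 2.21. The phosphatase scaffold genes Ppp1r3b and Ppp1r3g rose by 1.34 and 0.97, and Gaa, which degrades glycogen in lysosomes, by 0.51. Among those that fell were the hexokinase-like gene Hkdc1 (-1.56, at a mean of 0.857 ± 0.281 normalized reads in GOF and 4.49 ± 0.998 in WT, SD, n = 4 each), the transporter gene Slc2a12 (-0.75) and the phosphorylase kinase subunit gene Phkb (-0.21). Of 8 further genes of lower glycolysis and gluconeogenesis, 4 rose and 2 fell (median 0.20), or 1 fell without GOF sample 3 or without WT sample 3. Pck2, the mitochondrial phosphoenolpyruvate carboxykinase, rose by 1.69, the pyruvate carboxylase gene Pcx by 0.83 and the glucose 6-phosphate transporter gene Slc37a4 by 0.91. Tigar, a fructose 2,6-bisphosphatase that lowers glycolytic flux, had a change of -0.49.

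Around pyruvate and lactate, 4 of 14 further genes rose and 4 fell (median -0.06), shares close to those of all genes. Bsg, the chaperone that monocarboxylate transporters need to reach the cell surface, averaged 1225 ± 45.1 normalized reads in GOF and 531 ± 18.8 in WT (SD, n = 4 each), a log2 change of 1.204. Pdk4 rose by 0.78. Components of the pyruvate dehydrogenase complex were among those that fell, with log2 changes of -0.47 for Pdhx and -0.25 for Dlat, while Pdha1, the gene of its E1 alpha subunit, did not pass (0.01, 95% interval -0.099 to 0.12). In the hexosamine pathway 2 of 5 genes rose and 0 fell by limma (0 at an unadjusted p under 0.05), with Ogt at 0.96, Gfpt2 at 0.78, and Uap1 (-0.07) and Gfpt1 (-0.06) not past the threshold.

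The pentose phosphate pathway, which branches from glucose 6-phosphate, had 4 of 8 genes lower and 0 higher by limma (1 at an unadjusted p under 0.05), with a median of -0.14. Taldo1, the transaldolase gene, averaged 97.65 ± 8.3 normalized reads in GOF and 131 ± 3.69 in WT (SD, n = 4 each), a log2 change of -0.42. The changes of Rpia, Rpe and Pgd were -0.53, -0.24 and -0.22. Without GOF sample 4, 1 gene of this pathway passed as higher. Of 10 genes of the shuttles that carry the electrons of cytosolic NADH into mitochondria, 6 fell and 1 rose (median -0.17). Gpd1l had a change of -0.66, the aspartate-glutamate carrier gene Slc25a13 of -0.32 and the malate dehydrogenase gene Mdh2 of -0.22, while the oxoglutarate carrier gene Slc25a11 rose by 0.22.

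Markers of other sources of RNA were measured in the same samples. The counts of called markers stand beside 28.2% of all genes higher and 28.2% lower. Immediate early genes can be switched on by tissue handling, and 6 of 6 measured were higher. Their summed levels were 240 to 264 normalized reads in GOF and 128 to 144 in WT. The median log2 change of the 6 was 1.47, from 0.38 for Ier2 to 1.98 for Fos. Their part in the changes above was not tested. Erythroid markers, 9 of 9 in the table, summed to 2454 to 13710 in GOF and 2395 to 6805 in WT, with 0 called in either direction by limma (0 at an unadjusted p under 0.05). Epicardial markers were higher in 3 of 5, at 206 to 315 in GOF and 156 to 193 in WT, and endocardial and endothelial markers were higher in 1 and lower in 4 of 7, at 629 to 768 in GOF and 749 to 802 in WT, and their part was not tested. Of the skeletal muscle markers Myod1, Myf5, Myog and Pax3 were not among the genes of the table, and Ckm averaged 1.79 ± 0.513 in GOF against 2.25 ± 0.3903 in WT (SD, n = 4 each). Afp was the only marker of foregut endoderm and liver bud in the table, at 0.193 to 3.38 in GOF and 1.33 to 39.6 in WT.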

How the data were processed

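RNA-seq of 8 heart samples from mouse embryos at embryonic day 9.5 was used, 4 GOF and 4 WT, grouped by their labels. The authors deposited 1 table of normalized read counts per gene, a signal per gene and sample and neither the scaling method nor the annotation is given in the sources used here. Per the submitters' processing notes, CASAVA 1.8.2, cutadapt 1.6, FastQC, RSEM 1.2.3 and the build GRCm38 were named, without roles. Within each column every value was a whole number plus 0.5, times a single scale (tolerance 0.01), so the implied depth was 12287069 to 17927674 reads per sample, and precision of low genes is limited by these totals. The deposited values are normalized and are not themselves whole counts. No count model was run on the whole numbers that they imply.

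Gene symbols, positions and merged exon lengths came from GENCODE M21 (GRCm38), in which 13560 of the 13637 identifiers were found. The log2 of each value plus 1 was tested in limma 3.58.1 (R 4.3.3) with intensity trend and robust prior. Genes needed 1 normalized read or more in 4 or more samples, which all met, and p-values were adjusted by Benjamini-Hochberg over all 13637. Fold changes are on this scale, which understates the change of low genes. Log2 ratios of 19 isoenzyme pairs were compared by exact two-sided permutation tests, adjusted over the pairs. Levels per kilobase are normalized reads divided by merged exon length. The fit was tested on simulated data of 13637 genes. It recovered 90% of 100 genes changed by a log2 of 1 and 66% of 100 changed by 0.5, and called 0.0595% of the unchanged genes. Only these genes were changed in the simulation, whereas 56.3% of genes were called in the data. The recovery in the data can therefore differ.

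The members and lists were chosen with earlier results of these data known. Named were all 40 genes, with every sample's value for the genes of largest and smallest change in each step and for single-gene steps, and up to 4 genes of smallest p per further list. Alternatives were other pseudocounts (0.5 and 5), filters, scalings, limma settings, a replicate block and leaving out each sample.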

Additional observations from a re-analysis of the deposited data

Results flagged for a closer look

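In 3 of 80 groups of 4 samples (40 genes in GOF and in WT), a sample's gap to its nearest neighbour took more than 0.829 of the range of its group, a limit that chance passes in about 1 group of 20. Pgk1 in GOF sample 1 was at 3089 normalized reads, below the other GOF samples at 3368 to 3415. Pgm2 in GOF sample 1 was at 22.91, above the other GOF samples at 17.75 to 18.39. Slc2a3 in WT sample 1 was at 270.1, above the other WT samples at 186.2 to 190.8.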

How the results depend on the processing

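Over the alternatives run, the number of the 40 genes called higher was 29 to 31, the number called lower 2 or 3, and their median log2 change 0.64 to 0.73. The lowest count came without mitochondrially encoded genes at equal totals, where the median of all genes was -0.06 and all genes split 3141 higher and 4666 lower. Quantile normalization gave 3368 and 4407. The no-filter setting removed 0 genes. Signs turned only for genes or ratios that did not pass: Pygb at -0.0136 with quantile normalization, -0.0283 without mitochondrially encoded genes, and -0.02 to 0.1239 with a sample left out (-0.0047 without WT sample 4), Pgm2 at -0.0001 (to 0.1168 with other samples left out) and Ugp2 at 0.0067 (to -0.0938) without GOF sample 1, the ratio of Slc2a4 to Slc2a1 at -0.0559 with a pseudocount of 5, and Pfkfb1 to Pfkfb2 at -0.0508 without WT sample 3 and -0.0059 without GOF sample 3 (up to 0.1478 with others left out). With a sample left out, the ratio of Pdk3 to Pdk2 was 0.5332 to 0.6996 and that of Slc2a4 to Slc2a1 0.0553 to 0.1253. Among the further lists, a mean of at least 5 normalized reads gave 3 lower genes of glucose entry (6 before) and 1 higher of the pentose phosphate pathway (0 before, and 0 to 1 with a sample left out). Leaving out mitochondrially encoded genes gave 1 lower hexosamine gene (0 before), and leaving out a sample gave 1 to 3 lower genes of lower glycolysis (2 before). The causes were not tested.

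Same-numbered samples did not deviate together (correlations -0.137 to 0.00674), so no pairing by number was seen. Shared litters or batches cannot be judged from these correlations. With the replicate number as a block, 3678 genes were higher and 3677 lower, 30 of the 40 were higher and 2 lower, and their median was 0.70. Eno3 and Ldhb lost their calls (adjusted p = 0.0808 and 0.0535). Low levels limit Pfkfb1, Pfkfb2, Pfkfb4 and Pdk2. Over the 4 samples of a group, their implied reads ran from 358 (Pfkfb4 in GOF) to 1002 (Pdk2 in WT).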

Other observations

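Pklr and Bpgm encode pyruvate kinase and bisphosphoglycerate mutase forms known from red blood cells, and Hbb-y encodes an embryonic globin. These 3 genes were chosen after their values were seen. In GOF samples 1 to 4, Pklr had 42.3, 16.9, 12.2 and 30.2 normalized reads, against 9.61, 29.3, 26.0 and 21.4 in WT samples 1 to 4. Bpgm had 46.1, 28.6, 22.7 and 34.8 in GOF, against 36.1, 42.8, 39.0 and 36.0 in WT. Hbb-y had 5144, 1406, 839 and 3118 in GOF, against 828, 2300, 2372 and 1982 in WT. Within GOF all 3 genes were highest in sample 1 and lowest in sample 3. Within WT, Pklr and Hbb-y were lowest in sample 1, while Bpgm was lowest in sample 4.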
